A study of Homo sapiens with 9 samples.

Results

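Gene expression in a cell line resistant to the ALK inhibitor X-376 was compared with that in a line resistant to crizotinib. Both lines were made in culture from H3122, a human lung adenocarcinoma line in which a chromosomal rearrangement joins EML4 to ALK (EML4-ALK, variant E13;A20), and the labels call them isogenic. X376R denotes the X-376-resistant line and PF1066R the crizotinib-resistant line, since crizotinib is named PF1066 in the labels. The comparison rests on 6 of 9 Illumina bead arrays, 3 per resistant line, and the other 3 arrays read Parental H3122 cells, which are sensitive to both inhibitors. Members were chosen by label alone: all genes were compared between the 3 X376R and the 3 PF1066R arrays, with the Parental level set beside them as a description. Each resistant state is represented by 1 line. The sources used here do not say whether cells were held in inhibitor until lysis, or whether the arrays of a line come from separate cultures. The p-values therefore set each difference against the spread between these arrays only, and that spread may be technical.

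The ALK receptor tyrosine kinase is normally expressed mainly in nervous tissue. Fused to EML4 it signals without ligand through the MAPK, PI3K and STAT pathways, and tumour cells with the fusion usually depend on it for growth. Crizotinib inhibits ALK, MET and ROS1. Resistance to ALK inhibitors is known to arise through mutation or amplification of ALK, through other receptors that take over its signal, and through changes of cell state such as loss of epithelial character. With both lines derived from one parent, their direct comparison asks how cells selected under one ALK inhibitor differ in expression from cells selected under the other.

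Signals were read for 47322 probes. Background was set on each array by the brightest of 92 external control probes, and 35.9% to 59.2% of probes lay above it on the 6 arrays. Mean signal was 173 ± 9.09 units in X376R (SD, n = 3) and 201 ± 30.3 in PF1066R, with array ranges of 163 to 180 and 175 to 234. After background correction, quantile normalization and log2, arrays of one line correlated across genes at 0.980 to 0.988 and arrays of different lines at 0.949 to 0.960. Probes for all 10 markers of lung adenocarcinoma and epithelium were present, and 9 of them lay above background on all 3 arrays of each resistant line. Their summed level was 13080 to 13780 in PF1066R and 11260 to 13390 in X376R. By limma's test 2 of the 10 were higher in X376R, KRT7 and NKX2-1, and 3 lower. The lower ones were the mucin MUC1 (log2 change -1.11 ± 0.14, adjusted p = 1.7e-05), CDH1 and the keratin KRT18 (-0.47 ± 0.14, adjusted p = 0.0294), whose other probe gave 0.09 and whose call was lost in 7 of 19 alternatives, among them fits without PF1066R replicate 2 (adjusted p = 0.0976), without PF1066R replicate 3 (adjusted p = 0.119) and without X376R replicate 3 (adjusted p = 0.131). The other 5, with the adhesion molecule EPCAM at -0.01 (adjusted p = 0.971), did not pass.

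In all, 2213 of 13769 genes passed an adjusted p of 0.05 between the lines (16.1%), from limma's moderated test with Benjamini-Hochberg adjustment over all genes tested. Higher in X376R were 1098 genes (7.97%) and lower 1115 (8.1%). A change of at least 2-fold was reached by 274 genes (1.99%), 134 of them higher (0.973%) and 140 lower (1.02%). Changes of at least 4-fold were seen in 51 genes and of at least 8-fold in 13. For 29.1% of genes tested the arrays of the lines did not overlap. The median log2 change was -0.0010 over all genes, the median size of a change was 0.54 among genes past the threshold, and the median standard error was 0.120. The split by direction depended on the scaling: 49.6% of called genes were higher in X376R after quantile normalization, but 28.1% of 978 called genes when each array was centred on its median instead, which moved the median of all genes to -0.063. Of 757 called genes with several passing probes, 526 had at least 1 other probe that was not called in the same direction. Below, a gene's value is its log2 change, X376R minus PF1066R, ± SE, with n = 3 arrays per line, and all adjusted p-values are from that limma fit. All levels are of RNA, and no protein was measured. Called shares of the gene lists below stand against 16.1% of all genes, 7.97% higher and 8.1% lower. All the lists were written with earlier results of these data known, so their shares are no independent evidence.

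COL4A1, VIM and CST6 were among the 20 genes with the largest rise in X376R. COL4A1 read 9.66, 9.77 and 9.76 on the X376R arrays and 6.06, 6.02 and 6.03 on the PF1066R arrays. In X376R the level of COL4A1, a chain of basement membrane collagen IV, was 12.9-fold higher (3.69 ± 0.10, adjusted p = 2.82e-13). It lay above background on 1 of 3 PF1066R arrays, and the Parental mean was 6.12. VIM read 10.29, 10.43 and 10.24 on the X376R arrays and 6.70, 6.88 and 6.95 on the PF1066R arrays. VIM, which encodes vimentin, the intermediate filament protein of mesenchymal cells, was 11.2-fold higher (3.48 ± 0.11, adjusted p = 1.58e-12), and its Parental mean of 6.56 lay near that of PF1066R. CST6 read 10.72, 10.87 and 10.35 on the X376R arrays and 6.96, 7.20 and 6.89 on the PF1066R arrays. CST6, a secreted inhibitor of cysteine proteases, was 12.4-fold higher (3.64 ± 0.14, adjusted p = 5.85e-12). In each of these 3 genes the lowest X376R array stood more than 3 log2 units above the highest PF1066R array.

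Several of the highest genes were intermediate in Parental cells. TGFBI, a matrix protein induced by TGF-beta, was 10.1-fold higher in X376R (3.33 ± 0.13, adjusted p = 1.48e-11), with line means of 11.04 in X376R, 8.82 in Parental and 7.71 in PF1066R. The galactose-binding lectin LGALS1 was 10.1-fold higher (3.33 ± 0.18, adjusted p = 9.9e-10), with means in the same order of 10.79, 8.96 and 7.45. ANXA1, a phospholipid-binding protein of the inflammatory response, gave 2.94 ± 0.11, adjusted p = 7.86e-12, and the actin-bundling protein FSCN1 2.59 ± 0.17, adjusted p = 1.16e-08. Their Parental means of 8.31 and 8.88 also lay between those of the resistant lines. TIMP2, an inhibitor of matrix metalloproteinases, followed that order at 9.66, 8.45 and 7.43 (2.23 ± 0.21, adjusted p = 6.56e-07). Its other probe gave 0.59. PAEP, the lipocalin known as glycodelin, was 5.73-fold higher (2.52 ± 0.14, adjusted p = 1.4e-09), and here Parental cells gave the lowest mean of 5.84. TPM1, an actin-binding tropomyosin, was higher by 2.11, as was 1 of its other probes, while its remaining probe gave -0.06.

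TFF3, SCD and ALDH3A1 were among the 20 genes with the largest fall in X376R. TFF3 read 6.43, 6.48 and 6.32 on the X376R arrays and 10.16, 10.56 and 10.68 on the PF1066R arrays. TFF3, a trefoil peptide secreted with mucus, was 16.7-fold lower in X376R (-4.06 ± 0.14, adjusted p = 2.15e-12), while its Parental mean of 10.50 was close to the PF1066R mean of 10.47. SCD read 7.46, 7.59 and 7.45 on the X376R arrays and 10.65, 10.73 and 10.99 on the PF1066R arrays. SCD, which desaturates fatty acids, was 9.8-fold lower (-3.29 ± 0.12, adjusted p = 4.98e-12), and the Parental mean of 8.69 lay between the lines. ALDH3A1 read 6.42, 6.24 and 5.95 on the X376R arrays and 9.86, 9.90 and 9.85 on the PF1066R arrays. ALDH3A1, an aldehyde dehydrogenase of epithelia, was 12.7-fold lower (-3.67 ± 0.12, adjusted p = 2.15e-12) and was above background on 2 of 3 X376R arrays. The arrays of the lines did not overlap for these 3 genes, but the rule that chose the 20 highest and 20 lowest genes requires this. The same holds for members of the 20 highest and 20 lowest that are described again below.

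TFF1, the related trefoil peptide, was below background on all 3 X376R arrays and therefore at least 7.63-fold lower (adjusted p = 2.15e-12). TCIM, a regulator of Wnt signalling, was likewise not above background in X376R and at least 4.45-fold lower (adjusted p = 4.52e-09). GDF15, a secreted stress-induced cytokine, was 6.37-fold lower (-2.67 ± 0.12, adjusted p = 9.03e-11), and CEACAM5, the carcinoembryonic antigen, 5.52-fold (-2.47 ± 0.16, adjusted p = 8.75e-09). RGS17, which shortens G protein signals, gave -2.30, and the tissue-nonspecific alkaline phosphatase ALPL -2.26. The Parental means of RGS17 and ALPL, 10.13 and 10.34, lay above those of both resistant lines.

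**Figure D1:**
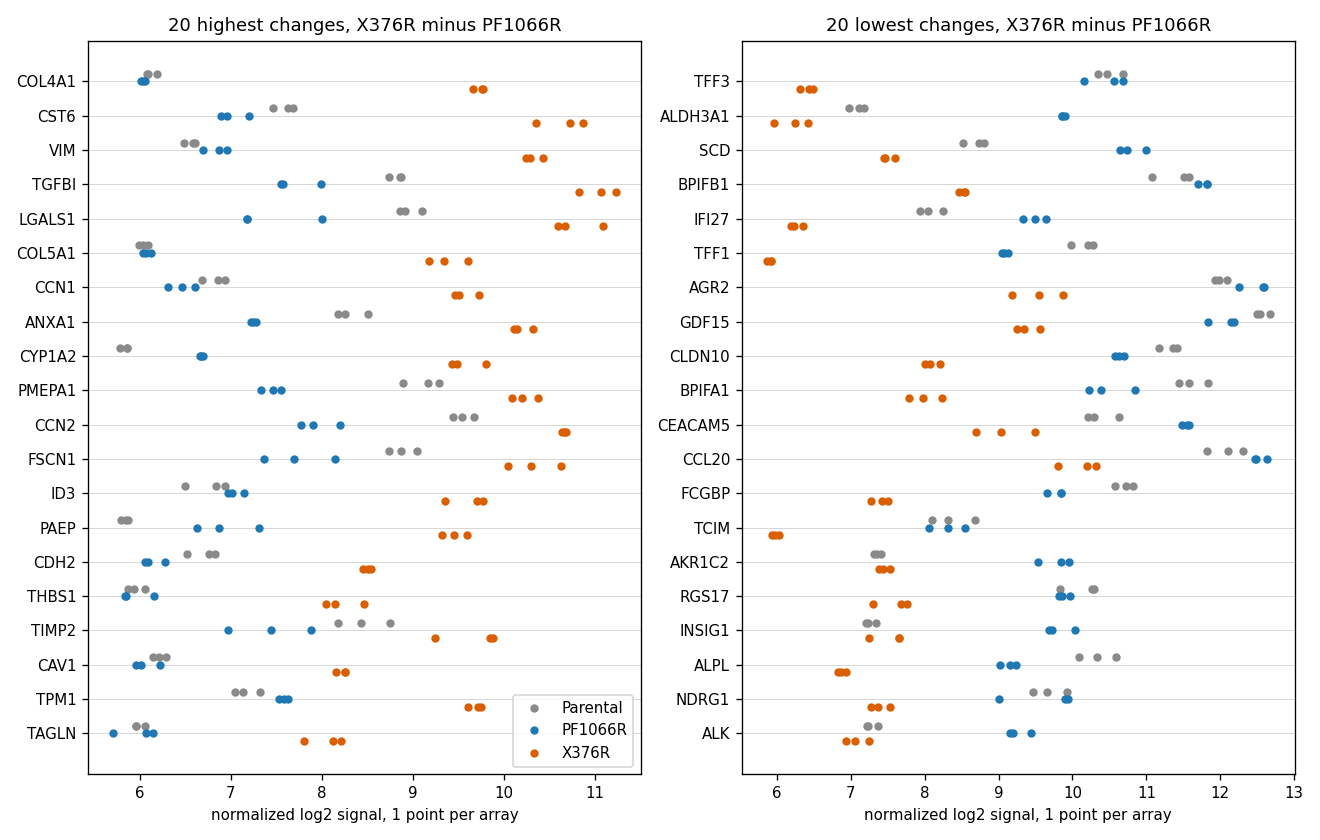
Normalized log2 signal (horizontal axis) on every array of each line for the 20 genes with the highest change (left) and the 20 with the lowest (right), ordered from top to bottom by size. By the rule that chose these genes, the 3 X376R points and the 3 PF1066R points of a gene never overlap, and the Parental points lie beside one line, between the lines or outside both.

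ALK itself differed between the lines. ALK read 7.06, 6.93 and 7.24 on the X376R arrays and 9.44, 9.19 and 9.16 on the PF1066R arrays. The level was 4.55-fold lower in X376R (-2.19 ± 0.12, adjusted p = 6.74e-10). ALK is among the 20 lowest, whose arrays do not overlap by the rule that chose them. The Parental mean was 7.27, so X376R stood near the parent and PF1066R above it. EML4, the fusion partner, gave -0.49 ± 0.13, adjusted p = 0.0152, a call lost with a normexp offset of 16 (adjusted p = 0.0528), without PF1066R replicate 3 (adjusted p = 0.0828) and without X376R replicate 1 (adjusted p = 0.0808). Where in ALK or EML4 the probes lie is unknown here, and fusion transcripts were not separated from unfused ones. Among the 8 tested genes on each side of ALK in chromosomal order, 14 did not pass, PPP1CB, a catalytic subunit of protein phosphatase 1, was lower (-0.79 ± 0.12, adjusted p = 0.000196), and LBH, a transcription cofactor, was higher (0.96 ± 0.12, adjusted p = 1.49e-05). Their other probes gave -0.08 and 0.24, and both were named after their values were seen.

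Of 17 measured receptors and adaptors, 3 were higher, 3 were lower and 11 did not pass (median log2 change -0.03). The called share of 35.3% compares with 16.1% of all genes, but the list was written with earlier results of these data known and is no independent evidence. AXL read 7.11, 7.11 and 6.93 on the X376R arrays and 6.03, 5.91 and 6.03 on the PF1066R arrays. AXL, a receptor tyrosine kinase for GAS6, was higher by 2.09-fold (1.06 ± 0.12, adjusted p = 4.49e-06), with a signal above background on 1 of 3 PF1066R arrays. ERBB2 read 8.84, 8.99 and 9.35 on the X376R arrays and 8.31, 8.16 and 8.41 on the PF1066R arrays. ERBB2, the receptor HER2, was 1.7-fold higher (0.77 ± 0.14, adjusted p = 0.000684), with no overlap of the arrays, and its call was lost when each array was centred on its median. CAV1, the caveolar scaffold protein, gave 2.15 ± 0.11, adjusted p = 3.02e-10 and was above background on 1 of 3 PF1066R arrays. Its other probe gave 0.42.

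The collagen receptor DDR1 was lower (-0.64 ± 0.15, adjusted p = 0.00844), but its 2 other probes gave -0.14 and -0.13 and the call was lost without PF1066R replicate 2 (adjusted p = 0.0526). EGFR gave -0.42 ± 0.11, adjusted p = 0.0179, with its other probe at -0.33, a call lost with array brightness as a covariate (adjusted p = 0.0625), with each array centred on its median (adjusted p = 0.0665), without PF1066R replicate 3 (adjusted p = 0.094) and without X376R replicate 2 (adjusted p = 0.077). ERBB3, the partner of ERBB2, gave -0.41 ± 0.12, adjusted p = 0.0261, with other probes at -0.67 and -0.15, a call lost in 8 of 19 alternatives, among them fits without PF1066R replicate 1 (adjusted p = 0.0902), without PF1066R replicate 3 (adjusted p = 0.0936), without X376R replicate 1 (adjusted p = 0.0532) and without X376R replicate 2 (adjusted p = 0.111). The remaining 11 did not pass. IGF1R, its substrates IRS1 and IRS2, MET and KIT gave log2 changes of -0.03, 0.14, 0.11, -0.07 and 0.03, with RET at 0.04, FGFR3 at -0.14 and EPHA2 at 0.29. The adaptors GRB2, GAB1 and SHC1, which link receptors to RAS and PI3K, gave -0.14, -0.08 and -0.08.

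Ligands of growth factor receptors, and the proteins that bind them, were called in both directions. Of 23 measured, 11 were higher, 4 were lower and 8 did not pass (median log2 change 0.21). The called share was 65.2%, against 16.1% of all genes. GAS6 read 7.95, 8.09 and 7.81 on the X376R arrays and 5.86, 5.84 and 5.99 on the PF1066R arrays. GAS6, the ligand of AXL, lay at or below background on every PF1066R array and was at least 3.6-fold higher in X376R (adjusted p = 5.07e-10). HBEGF, an EGFR ligand, was likewise at least 2.41-fold higher (adjusted p = 4.42e-08). VEGFC, a ligand of VEGF receptors, gave 1.39 ± 0.10, adjusted p = 3.35e-08. Of the binding proteins for insulin-like growth factors, IGFBP7 was higher (1.90 ± 0.11, adjusted p = 1.6e-09; above background on 2 of 3 PF1066R arrays) and IGFBP2 lower (-1.50 ± 0.15, adjusted p = 1.51e-06).

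**Figure D2:**
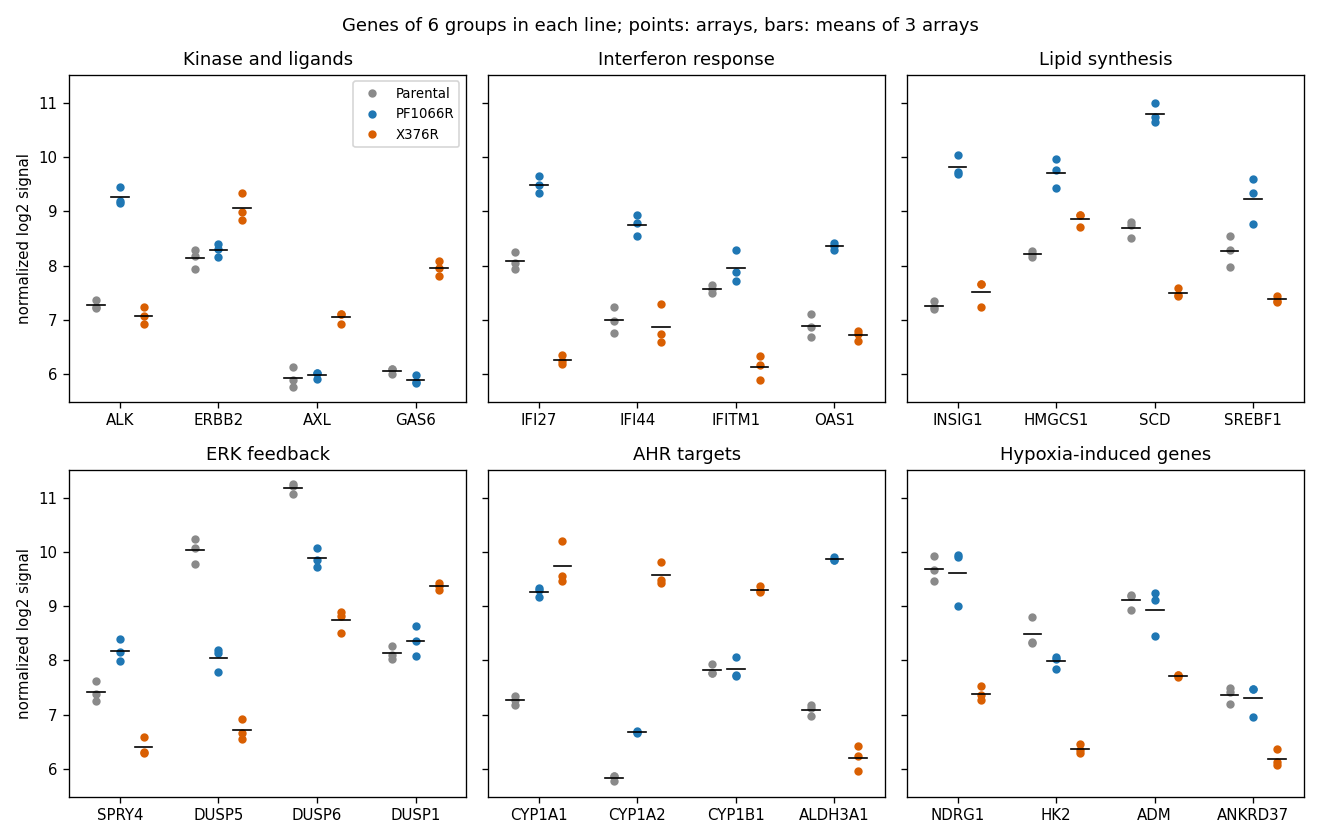
Normalized log2 signal (vertical axis) of 24 genes in 6 groups, with 1 point per array and a bar at each line's mean of 3 arrays. ALK, SCD and IFI27 are higher in PF1066R than in X376R, while AXL, GAS6 and CYP1A2 are higher in X376R, and the Parental points show which line stands nearer to the parent.

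Transcripts that ERK activity induces, many of which feed back on the pathway, were mixed in direction. Of 25 measured members, 4 were higher, 8 were lower and 13 did not pass (median log2 change -0.092, called share 48%). DUSP6 read 8.82, 8.89 and 8.51 on the X376R arrays and 9.85, 9.72 and 10.08 on the PF1066R arrays. The ERK phosphatase DUSP6 was 2.22-fold lower in X376R (-1.15 ± 0.13, adjusted p = 4.88e-06) with arrays apart, and the Parental mean of 11.17 was above both. The related phosphatase DUSP5 gave -1.33 ± 0.14, adjusted p = 3.78e-06, with means of 6.71 in X376R, 8.04 in PF1066R and 10.03 in Parental. SPRY4, an inhibitor of receptor signalling, gave -1.78 ± 0.13, adjusted p = 4.09e-08, but its 3 other probes gave -0.08, -0.18 and -0.44. In the other direction, the immediate early factor FOS was higher (1.16 ± 0.15, adjusted p = 2.34e-05), as was DUSP1, a phosphatase of p38, JNK and ERK (1.01 ± 0.13, adjusted p = 2.97e-05).

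Of 16 measured genes of PI3K, AKT and mTOR signalling, 4 were higher, 1 was lower and 11 did not pass. Their median log2 change was 0.06 and the called share 31.2%. DDIT4, a stress-induced inhibitor of mTORC1, was lower (-1.36 ± 0.20, adjusted p = 0.000129). INPP4B, a phosphatase of PI3K lipid products, was higher (0.56 ± 0.11, adjusted p = 0.00158), a call lost under median centring of the arrays. The other 3 higher members, TSC1, AKT1 and SESN1, had adjusted p-values of 0.0309, 0.0435 and 0.0492. TSC1 and AKT1 lost their calls in 8 and 13 of 19 alternatives, and SESN1 in 11 of the 18 it was tested in. Those alternatives included, for each of the 3 genes, the fits without each PF1066R array in turn (adjusted p = 0.0544 to 0.154) and the fit without X376R replicate 3 (adjusted p = 0.0503 to 0.141). AKT1 was also lost without X376R replicate 2, and SESN1 in all 6 fits that left out 1 array. The other AKT1 probe gave -0.18 and the other TSC1 probes -0.23 and 0.05.

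Genes of the mesenchymal state and of TGF-beta signalling were among the largest differences. In an epithelial-mesenchymal transition cells lose junctions and keratins and gain vimentin, N-cadherin, matrix and contractile proteins, and TGF-beta is its best known inducer. Of 17 measured mesenchymal genes, 9 were higher, 1 was lower and 7 did not pass (median log2 change 0.38, called share 58.8%). CDH2 read 8.46, 8.54 and 8.50 on the X376R arrays and 6.28, 6.09 and 6.06 on the PF1066R arrays. CDH2, which encodes N-cadherin, was higher by 5.12-fold (2.36 ± 0.11, adjusted p = 1.5e-10), with a signal above background on 1 of 3 PF1066R arrays, while the Parental mean was 6.70. By the probe that stood for it, TAGLN, the smooth muscle protein transgelin, was not above background in PF1066R. That probe was at least 3.85-fold higher in X376R (adjusted p = 6.3e-09), while the other TAGLN probe gave 0.90. The member in the other direction was S100A4, a calcium-binding protein of motile cells (-1.55 ± 0.12, adjusted p = 1.06e-07).

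Epithelial genes were called in both directions. Of 23 measured junction and keratin genes, 5 were higher, 6 were lower and 12 did not pass (median log2 change -0.052, called share 47.8%). The tight junction protein CLDN10 was lower (-2.54 ± 0.11, adjusted p = 3.36e-11), as was CLDN7 (-0.74 ± 0.15, adjusted p = 0.00185), but CLDN1 was higher (1.25 ± 0.14, adjusted p = 6.51e-06), as was keratin KRT7 (1.52 ± 0.15, adjusted p = 1.54e-06). CDH1, which encodes E-cadherin, gave -0.46 ± 0.12, adjusted p = 0.0137, and this call was lost with array brightness as a covariate (adjusted p = 0.103), with each array centred on its median (adjusted p = 0.0673), with a normexp offset of 16 (adjusted p = 0.0584), without PF1066R replicate 1 (adjusted p = 0.0613), without PF1066R replicate 3 (adjusted p = 0.0606) and without X376R replicate 2 (adjusted p = 0.0529). Keratins KRT8 and KRT19 did not pass at -0.33 and -0.16.

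Targets of TGF-beta, BMP and YAP had one of the highest called shares of the lists, 80% against 16.1% of all genes. This list too was written with earlier results of these data known and is no independent evidence. Of 20 measured, 15 were higher, 1 was lower and 4 did not pass (median log2 change 0.61). CCN1 read 9.51, 9.46 and 9.73 on the X376R arrays and 6.61, 6.31 and 6.46 on the PF1066R arrays. CCN1, a matricellular YAP target, was 8.64-fold higher (3.11 ± 0.12, adjusted p = 7.86e-12). PMEPA1 read 10.09, 10.38 and 10.20 on the X376R arrays and 7.33, 7.55 and 7.46 on the PF1066R arrays. PMEPA1, a feedback inhibitor of TGF-beta signalling, was 6.83-fold higher (2.77 ± 0.12, adjusted p = 6.1e-11). Both genes are among the 20 highest, whose arrays do not overlap by the rule that chose them. The other PMEPA1 probes gave 1.15 and 2.63. CCN2, the related matricellular protein, gave 2.70 ± 0.12, adjusted p = 5.03e-11, and ID3, a BMP target that blocks basic helix-loop-helix factors, 2.57 ± 0.13, adjusted p = 5.17e-10. PMEPA1 had means of 10.22 in X376R, 9.12 in Parental and 7.45 in PF1066R, and CCN2 10.66, 9.55 and 7.96 in that order. For these 2 genes the parent lay between the resistant lines, nearer to X376R. The Parental means of CCN1 and ID3, 6.83 and 6.76, lay nearer to PF1066R.

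Matrix genes that passed the test were higher in X376R. Of 21 measured collagens, laminins and other matrix genes, 13 were higher, 0 were lower and 8 did not pass. Their median log2 change was 0.55 and the called share 61.9%. The fibrillar collagen chain COL5A1 was 9.87-fold higher (3.30 ± 0.12, adjusted p = 3.48e-12), COL4A2, the partner chain of COL4A1, gave 1.75 ± 0.14, adjusted p = 7.81e-08 and the laminin chain LAMB1 1.57 ± 0.15, adjusted p = 8.13e-07. The other LAMB1 probe gave 0.76. THBS1, thrombospondin 1, gave 2.27 ± 0.13, adjusted p = 1.33e-09. COL5A1, COL4A2 and THBS1 were above background on 1 of 3 PF1066R arrays. Of 19 measured integrins and focal adhesion genes, 9 were higher, 0 were lower and 10 did not pass. Their median log2 change was 0.36 and the called share 47.4%. The integrin subunit ITGA3 gave 1.61 ± 0.15, adjusted p = 6.17e-07, although its other probe gave 0.12, and the caveolar protein CAV2 gave 1.24 ± 0.11, adjusted p = 5.54e-07. The other CAV2 probes gave 1.42 and 0.41. CAVIN1, the caveolar coat protein, was not above background in PF1066R and at least 3.41-fold higher (adjusted p = 1.4e-09).

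Fibroblast markers were read beside these groups. Of 8 with probes, COL1A1 and COL3A1 were above background on all 3 PF1066R arrays, and COL1A1 and LUM on all 3 X376R arrays. The summed level of the 8 was 671.6 to 722.7 in X376R and 575 to 594.4 in PF1066R. Of 5 tested, COL1A1, also counted among the matrix genes, was higher in X376R (0.85 ± 0.12, adjusted p = 0.000113) and 4 did not pass. Among those 4, the proteoglycan LUM had means of 6.54 in X376R and 6.07 in PF1066R (adjusted p = 0.0547). The surface markers PDGFRB and THY1 were below background on every array of both lines. For endothelium the summed level was 533.4 to 571.4 in X376R and 388.5 to 466.6 in PF1066R. Of 3 endothelial markers tested, the cadherin CDH5 was higher in X376R (0.85 ± 0.13, adjusted p = 0.000192), a call lost with each array centred on its median (adjusted p = 0.088). PECAM1 did not pass at -0.04, TEK did not pass at -0.16, and KDR was below background on every array of both lines. In bulk RNA, fewer cells of a type and less RNA per cell cannot be told apart, and the part of these markers in the differences was not tested.

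Secreted proteins of airway and gut epithelium were mostly lower in X376R. Of 28 measured genes, 1 was higher, 19 were lower and 8 did not pass (median log2 change -0.70, called share 71.4%). AGR2 read 9.87, 9.18 and 9.55 on the X376R arrays and 12.59, 12.57 and 12.25 on the PF1066R arrays. AGR2, a disulfide isomerase needed for mucin folding, was 7.67-fold lower (-2.94 ± 0.15, adjusted p = 3.41e-10), and Parental arrays averaged 11.997. BPIFB1 read 8.55, 8.52 and 8.47 on the X376R arrays and 11.82, 11.69 and 11.82 on the PF1066R arrays. BPIFB1, an airway defence protein, was 9.61-fold lower (-3.26 ± 0.13, adjusted p = 7.86e-12), its relative BPIFA1 gave -2.49 ± 0.16, adjusted p = 5.17e-09, and arrays of the lines did not overlap. The mucus component FCGBP gave -2.38 ± 0.11, adjusted p = 1.32e-10. The 1 member higher in X376R was PAEP, and 8 did not pass.

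Transcription factors of the lung lineage were divided. Of 19 measured lineage and stemness factors, 4 were higher, 4 were lower and 11 did not pass (median log2 change -0.11, called share 42.1%). The epithelial factors EHF (-0.79 ± 0.15, adjusted p = 0.00177) and KLF5 (-0.58 ± 0.11, adjusted p = 0.00139) were lower, ELF3 gave -0.52 and was also lower, and the lung homeobox protein HOPX was higher (0.86 ± 0.11, adjusted p = 4.43e-05), with its other probe at 0.21. NKX2-1, the master regulator of distal lung epithelium, gave 0.48 ± 0.12, adjusted p = 0.0108, a call lost with each array centred on its median (adjusted p = 0.577), without PF1066R replicate 3 (adjusted p = 0.052) and without X376R replicate 2 (adjusted p = 0.052). The surfactant gene SFTPB and the aspartic protease NAPSA did not pass, at -0.02 and -0.19.

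Of 18 measured serpins and protease inhibitors, 7 were higher, 1 was lower and 10 did not pass (median log2 change 0.069, called share 44.4%). Beside CST6 and TIMP2, SERPINE2, which inhibits thrombin and urokinase, was higher (1.81 ± 0.13, adjusted p = 2.08e-08), as were SERPINA1, alpha-1-antitrypsin (1.29 ± 0.16, adjusted p = 1.78e-05), and the collagen chaperone SERPINH1 (1.16 ± 0.11, adjusted p = 7.95e-07). The other SERPINA1 probes gave 0.49 and 1.11. SERPINE2 had means of 8.79 in X376R, 6.98 in PF1066R and 10.01 in Parental, so both resistant lines lay below the parent. The Parental means of SERPINA1 and SERPINH1, 6.91 and 6.96, lay nearer to PF1066R than to X376R. Of 14 measured S100 genes, 2 were higher, 4 were lower and 8 did not pass (median log2 change -0.092, called share 42.9%). Of the subunits of calprotectin, S100A8 was higher (1.12 ± 0.12, adjusted p = 4.73e-06) and S100A9 lower (-1.06 ± 0.12, adjusted p = 5.8e-06). Of 18 measured WNT and NOTCH genes, 2 were higher, 3 were lower and 13 did not pass (median log2 change -0.086), a called share of 27.8%. HEY1, a NOTCH target, was not above background in X376R and at least 1.56-fold lower (adjusted p = 0.000112), though its other probe gave 0.06, and DKK1, a secreted WNT inhibitor, was higher (0.84 ± 0.11, adjusted p = 2.55e-05).

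Cytokine and inflammatory genes were lower more often than higher. Of 27 measured NF-kappaB and inflammatory genes, 3 were higher, 8 were lower and 16 did not pass (median log2 change -0.037, called share 40.7%). CCL20 read 10.20, 9.80 and 10.32 on the X376R arrays and 12.47, 12.48 and 12.63 on the PF1066R arrays. CCL20, a chemokine for CCR6-bearing lymphocytes, was 5.35-fold lower in X376R (-2.42 ± 0.14, adjusted p = 2.23e-09) with arrays apart. The complement factor CFB gave -1.85 ± 0.15, adjusted p = 1.6e-07 and PTGS2, the inducible cyclooxygenase, -1.64 ± 0.13, adjusted p = 1.34e-07. IL6 was higher (0.92 ± 0.11, adjusted p = 1.29e-05) and above background on 1 of 3 PF1066R arrays.

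Genes of the interferon response that passed the test were all lower in X376R. Interferons are secreted signals of infection that switch on antiviral genes, many of which carry the interferon-stimulated response element in their promoters. The promoters of 3 of the most changed members are shown, from 250 bases before to 50 after the transcription start, as RefSeq gives them for GRCh38.p14. Capitals mark matches, on either strand, to GAAA, any 2 bases and GAAA again, the core of that element.
IFI27 (chr14:94110486-94110785, + strand): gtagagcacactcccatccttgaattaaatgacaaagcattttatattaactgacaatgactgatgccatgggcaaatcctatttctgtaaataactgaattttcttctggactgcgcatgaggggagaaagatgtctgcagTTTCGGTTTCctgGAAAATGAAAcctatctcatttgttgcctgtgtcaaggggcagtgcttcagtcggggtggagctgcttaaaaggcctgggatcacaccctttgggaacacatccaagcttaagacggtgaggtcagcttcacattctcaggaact
IFI44 (chr1:78649539-78649838, + strand): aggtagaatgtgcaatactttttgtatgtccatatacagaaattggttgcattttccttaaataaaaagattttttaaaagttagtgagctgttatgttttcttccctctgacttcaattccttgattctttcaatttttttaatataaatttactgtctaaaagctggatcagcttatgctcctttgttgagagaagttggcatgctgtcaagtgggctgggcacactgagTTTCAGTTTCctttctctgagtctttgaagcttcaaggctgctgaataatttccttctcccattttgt
IFITM1 (chr11:313790-314089, + strand): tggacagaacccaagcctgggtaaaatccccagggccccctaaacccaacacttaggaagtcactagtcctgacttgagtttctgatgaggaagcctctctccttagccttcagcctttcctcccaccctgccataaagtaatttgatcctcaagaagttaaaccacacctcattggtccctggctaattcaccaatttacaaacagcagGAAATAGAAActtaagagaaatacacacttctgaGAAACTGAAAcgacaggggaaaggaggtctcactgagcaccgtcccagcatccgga

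Of 38 measured interferon response genes, 0 were higher, 23 were lower and 15 did not pass (median log2 change -0.48, called share 60.5%). IFI27 read 6.36, 6.23 and 6.19 on the X376R arrays and 9.33, 9.64 and 9.49 on the PF1066R arrays. IFI27, a mitochondrial protein induced by type I interferon, was 9.37-fold lower in X376R (-3.23 ± 0.12, adjusted p = 4.98e-12) and was above background on 2 of 3 X376R arrays. Its Parental mean of 8.08 lay between the lines. IFI44 read 6.60, 6.74 and 7.29 on the X376R arrays and 8.93, 8.55 and 8.78 on the PF1066R arrays. IFI44, an interferon-induced cytoplasmic protein, was 3.68-fold lower (-1.88 ± 0.17, adjusted p = 3.29e-07), with a Parental mean of 6.997 near that of X376R. OAS1, which makes the activator of RNase L, gave -1.64 ± 0.12, adjusted p = 3.11e-08, with means of 6.72 in X376R, 8.35 in PF1066R and 6.89 in Parental. The membrane proteins IFITM1 (-1.83 ± 0.14, adjusted p = 8.56e-08) and IFITM2 (-1.51 ± 0.13, adjusted p = 2.17e-07), which block viral entry, were lower too. They have close paralogues, and IFITM1 was above background on 1 of 3 X376R arrays.

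That pattern was found in 19 of 30 promoters of the interferon list that RefSeq gives (63.3%). It was in 12 of the 18 such promoters whose gene was lower. Among all 35116 promoters it was in 3.57%, and among 10867 promoters of tested genes in 3.01%. Among genes at least 2-fold lower in X376R the pattern was in 10 of 99 promoters (10.1%), and among those at least 2-fold higher in 2 of 113 (1.77%). A match describes the sequence and is not a bound site.

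Of 20 measured antigen presentation genes, 0 were higher, 10 were lower and 10 did not pass (median log2 change -0.38, called share 50%). The class I heavy chain HLA-B gave -1.01 ± 0.20, adjusted p = 0.00157, HLA-F -0.81 ± 0.12, adjusted p = 0.000168 and the peptide transporter TAP1 -0.83 ± 0.10, adjusted p = 1.93e-05. The HLA genes have near-identical relatives, so their probes may read several of them. HLA-B, HLA-F and TAP1 had means of 9.30, 7.86 and 7.47 in X376R and 10.31, 8.67 and 8.30 in PF1066R. Their Parental means were 8.78, 7.31 and 7.50, so X376R stood near or above the parent and PF1066R above it. CD74, the class II invariant chain, was lower (-0.78 ± 0.12, adjusted p = 0.000237) and above background on 1 of 3 X376R arrays. The CD74 Parental mean of 6.34 lay between those of the resistant lines. Leukocyte markers had a summed level of 459 to 511.1 in X376R and 507.5 to 526.4 in PF1066R, and 2 of the 5 with probes were above background on all 3 arrays of each line. Their part in the difference was not tested.

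Genes of lipid synthesis that passed the test were lower in X376R, with 1 exception. SREBP transcription factors switch on cholesterol and fatty acid synthesis when membrane sterol is low, and INSIG1 is both their target and their brake. Of 20 measured genes of cholesterol synthesis and uptake, 0 were higher, 7 were lower and 13 did not pass. Their median log2 change was -0.24 and the called share 35%. INSIG1 read 7.24, 7.66 and 7.65 on the X376R arrays and 9.73, 9.69 and 10.03 on the PF1066R arrays. INSIG1 was 4.92-fold lower in X376R (-2.30 ± 0.13, adjusted p = 1.4e-09), and X376R arrays overlapped the Parental arrays, whose mean was 7.26. HMGCS1 read 8.93, 8.72 and 8.92 on the X376R arrays and 9.76, 9.43 and 9.96 on the PF1066R arrays. HMGCS1, which makes the precursor of mevalonate, was 1.81-fold lower (-0.85 ± 0.13, adjusted p = 0.000158), with arrays apart and a Parental mean of 8.22 below both. The sterol oxidase MSMO1 gave -0.97, with other probes at -0.94 and -0.06, and the thiolase ACAT2 gave -0.93 ± 0.12, adjusted p = 1.88e-05. The other ACAT2 probe gave -0.43. FDPS, which makes farnesyl diphosphate, gave -0.67 ± 0.16, adjusted p = 0.00678. The sterol regulatory element TCACNCCAC, searched in the same promoter windows on both strands, was in 1 of 18 promoters of this list, against 1.06% of promoters of tested genes. It was in 0 of the 5 such promoters whose gene was lower in X376R. The AP-1 element TGACTCA was in 5 of 99 promoters of genes at least 2-fold lower and 2 of 113 of those at least 2-fold higher, against 3.43%.

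Of 22 measured genes of fatty acids and lipid storage, 1 was higher, 6 were lower and 15 did not pass. Their median log2 change was -0.22 and the called share 31.8%. SREBF1 read 7.33, 7.44 and 7.35 on the X376R arrays and 8.76, 9.34 and 9.59 on the PF1066R arrays. SREBF1, which encodes the SREBP factor of fatty acid synthesis, was 3.62-fold lower (-1.86 ± 0.18, adjusted p = 8.13e-07) with no overlap. Its other probe gave -0.71. LPIN1, a phosphatidate phosphatase, gave -1.87 ± 0.12, adjusted p = 8.75e-09 and FASN, which encodes fatty acid synthase, -0.71 ± 0.12, adjusted p = 0.000367. The exception in direction was ACSL4, which activates polyunsaturated fatty acids (0.57 ± 0.12, adjusted p = 0.00264), a call lost under median centring of the arrays, and its other probe gave 0.17.

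Enzymes that the aryl hydrocarbon receptor induces were called in both directions. This ligand-activated factor binds the dioxin response element with ARNT, and CYP1A1, CYP1A2 and CYP1B1 are its classical targets. CYP1A1 and CYP1A2 are neighbours on opposite strands, and their promoters are shown with the core GCGTG, searched on both strands, in capitals (RefSeq, GRCh38.p14).
CYP1A1 (chr15:74725479-74725778, - strand): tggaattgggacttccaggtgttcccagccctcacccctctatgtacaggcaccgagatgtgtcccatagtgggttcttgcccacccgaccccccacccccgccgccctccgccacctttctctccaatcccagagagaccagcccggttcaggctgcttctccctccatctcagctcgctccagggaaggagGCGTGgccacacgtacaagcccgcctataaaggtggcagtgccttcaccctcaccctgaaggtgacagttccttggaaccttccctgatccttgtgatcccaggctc
CYP1A2 (chr15:74748595-74748894, + strand): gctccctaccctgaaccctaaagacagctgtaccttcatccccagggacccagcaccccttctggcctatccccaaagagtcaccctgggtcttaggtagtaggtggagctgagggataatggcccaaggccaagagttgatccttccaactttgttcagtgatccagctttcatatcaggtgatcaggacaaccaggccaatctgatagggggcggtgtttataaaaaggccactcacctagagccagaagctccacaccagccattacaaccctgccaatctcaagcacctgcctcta
The first holds 1 match and the second 0 in this window, and 48.1% of promoters of tested genes hold at least 1.

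CYP1A2 read 9.43, 9.81 and 9.49 on the X376R arrays and 6.67, 6.68 and 6.69 on the PF1066R arrays. In X376R CYP1A2 was higher by 7.44-fold (2.89 ± 0.11, adjusted p = 9.67e-12). The Parental mean of 5.83 was below both resistant lines. CYP1B1 was 2.76-fold higher (1.47 ± 0.12, adjusted p = 9.36e-08), with PF1066R and Parental means of 7.84 and 7.82. CYP1A1 gave 0.48 ± 0.15, adjusted p = 0.041, but its call was lost in 12 of 19 alternatives, among them fits without PF1066R replicate 1 (adjusted p = 0.141), without PF1066R replicate 2 (adjusted p = 0.0722), without PF1066R replicate 3 (adjusted p = 0.0867) and without X376R replicate 3 (adjusted p = 0.178). Its means were 9.74 in X376R, 9.27 in PF1066R and 7.26 in Parental. Of 10 measured targets and partners, 4 were higher, 1 was lower and 5 did not pass (median log2 change 0.24, called share 50%). ALDH3A1 was the member that was lower. The receptor AHR itself did not pass at 0.13 (adjusted p = 0.501; named after its value was seen).

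NRF2, the sensor of electrophiles and oxidants, drives genes of glutathione and thioredoxin metabolism. Of 18 measured targets, 1 was higher, 9 were lower and 8 did not pass (median log2 change -0.28, called share 55.6%). AKR1C2, a reductase of steroids and carbonyls, was lower by the probe that stood for it (-2.32 ± 0.12, adjusted p = 3.41e-10), but its other probe gave -0.09, and AKR1C genes are close paralogues. TXNRD1, which encodes thioredoxin reductase, gave -0.95 ± 0.14, adjusted p = 0.000123. SLC7A11, the cystine carrier, was not above background in X376R and at least 1.75-fold lower (adjusted p = 7.77e-05). GPX2, an epithelial glutathione peroxidase, gave -0.54 ± 0.12, adjusted p = 0.00568. The Parental means of AKR1C2 and GPX2, 7.36 and 6.61, lay nearer to X376R (7.45 and 6.43) than to PF1066R (9.78 and 6.97). Those of TXNRD1 and SLC7A11, 10.15 and 7.18, lay nearer to PF1066R (10.32 and 6.96).

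Of 17 measured aldehyde dehydrogenases, 3 were higher, 4 were lower and 10 did not pass (median log2 change 0.072, called share 41.2%). ALDH2, the mitochondrial enzyme that oxidises acetaldehyde, was lower (-1.49 ± 0.11, adjusted p = 3.64e-08), and ALDH1A1, a retinal dehydrogenase, was at least 1.53-fold lower and not above background in X376R (adjusted p = 0.000172). ALDH3B1 (1.16 ± 0.12, adjusted p = 2.2e-06) and ALDH1A3 (0.88 ± 0.14, adjusted p = 0.000201) were higher, with other probes at 0.27 and 0.41. ALDH1A3 had means of 8.65 in X376R, 7.77 in PF1066R and 9.45 in Parental, so both resistant lines lay below the parent. The Parental mean of ALDH3B1, 6.59, lay near the PF1066R mean of 6.65. Of 16 measured ABC transporters, 1 was higher, 4 were lower and 11 did not pass (median log2 change -0.08, called share 31.2%). ABCC4, an exporter of nucleotides and prostaglandins, was lower (-0.91 ± 0.13, adjusted p = 0.000126), and so was ABCB6, a porphyrin transporter (-0.67 ± 0.11, adjusted p = 0.000291), while ABCC5, which exports cyclic nucleotides, was higher (0.62 ± 0.12, adjusted p = 0.00158). The multidrug transporter ABCB1 did not pass (adjusted p = 0.338; named after its value was seen).

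Histone genes had the highest median of the lists written, all of them written with earlier results of these data known. Of 21 measured, 13 were higher, 0 were lower and 8 did not pass (median log2 change 1.15), a called share of 61.9%. H2AJ read 11.20, 11.33 and 11.31 on the X376R arrays and 9.09, 9.76 and 9.22 on the PF1066R arrays. H2AJ, a replication-independent H2A variant, was 3.79-fold higher in X376R (1.92 ± 0.14, adjusted p = 4.09e-08), with arrays apart and a Parental mean of 9.22. H2BC21 gave 1.88 ± 0.11, adjusted p = 1.66e-09 and H2AC6 1.85 ± 0.13, adjusted p = 2.02e-08. H2AC18 and H2AC19, with the largest values of 2.74 and 2.99, encode the same protein in near-identical copies, and probes cannot be assigned to one of them with certainty.

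Genes of DNA replication were higher more often than lower. Of 33 measured genes of DNA replication and S phase, 12 were higher, 1 was lower and 20 did not pass. Their median log2 change was 0.22 and the called share 39.4%. With each array centred on its median, 1 was higher and 1 lower. TYMS, which encodes thymidylate synthase, was higher (1.04 ± 0.12, adjusted p = 1.17e-05), as were the thymidine kinase gene TK1 (0.82 ± 0.13, adjusted p = 0.000254), the maintenance methylation factor UHRF1 (0.67 ± 0.15, adjusted p = 0.00498) and the helicase subunit MCM2 (0.61 ± 0.14, adjusted p = 0.00571). Median centring of the arrays ended the calls of TK1, UHRF1 and MCM2, array brightness as a covariate that of MCM2 (adjusted p = 0.0674), and the other probe of UHRF1 gave 0.06. RFC5, a clamp loader subunit, was lower (-0.60 ± 0.12, adjusted p = 0.00149), with its other probe at -0.08. Of 30 measured genes of mitosis, 1 was higher, 3 were lower and 26 did not pass (median log2 change 0.037), a called share of 13.3% against 16.1% of all genes. UBE2C, the ubiquitin carrier of the anaphase-promoting complex, gave 0.67 ± 0.12, adjusted p = 0.000576, with its other probe at 0.16, and lost its call under median centring. The proliferation marker MKI67 did not pass at -0.02 (named after its value was seen).

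Of 19 measured p53 targets, 6 were higher, 3 were lower and 10 did not pass (median log2 change 0.014, called share 47.4%). TP53I3, an oxidoreductase, was higher by 3.97-fold (1.99 ± 0.16, adjusted p = 1.34e-07). CDKN1A, the cyclin-dependent kinase inhibitor p21, gave 0.75 ± 0.12, adjusted p = 0.000395, a call lost with each array centred on its median. GDF15, also a p53 target, was lower, and MDM2 did not pass at 0.01 (named after its value was seen). Of 27 measured apoptosis regulators, 5 were higher, 5 were lower and 17 did not pass (median log2 change 0.035, called share 37%). The TRAIL receptors TNFRSF10B (-1.14 ± 0.14, adjusted p = 1.91e-05) and TNFRSF10A (-0.67 ± 0.12, adjusted p = 0.000923) were lower, with the other TNFRSF10B probe at -0.03, and BIK, a BH3-only protein, was lower (-0.65 ± 0.11, adjusted p = 0.000355). PMAIP1, the BH3-only protein NOXA, was higher (0.94 ± 0.13, adjusted p = 4.2e-05), with its other probe at 0.30. BCL2L11, the BH3-only protein BIM, did not pass at 0.22 (named after its value was seen).

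Hypoxia-induced and glycolytic genes were lower more often than higher. Of 27 measured, 1 was higher, 12 were lower and 14 did not pass (median log2 change -0.29, called share 48.1%). NDRG1 read 7.27, 7.53 and 7.37 on the X376R arrays and 9.002, 9.94 and 9.90 on the PF1066R arrays. NDRG1, a differentiation and stress gene, was 4.68-fold lower in X376R (-2.23 ± 0.19, adjusted p = 2.76e-07), with arrays apart and a Parental mean of 9.68. HK2, which encodes hexokinase 2, gave -1.62 ± 0.13, adjusted p = 1.1e-07, the vasodilator peptide gene ADM -1.22 ± 0.16, adjusted p = 3.61e-05 and the prolyl hydroxylase subunit P4HA1 -0.91 ± 0.15, adjusted p = 0.000285. ANKRD37, a HIF target, gave -1.11 ± 0.14, adjusted p = 2.58e-05 and was above background on 1 of 3 X376R arrays. The Parental means of HK2 and ADM, 8.49 and 9.11, lay closer to PF1066R than to X376R.

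Stress and amino acid genes were called in both directions. Of 30 measured targets of ATF4, the transcription factor of the amino acid response, 4 were higher, 8 were lower and 18 did not pass. Their median log2 change was -0.16 and the called share 40%. SLC38A2, a carrier of small neutral amino acids, was lower (-0.96 ± 0.20, adjusted p = 0.00315), and ATF5 was higher (0.84 ± 0.12, adjusted p = 0.000109). Of 28 measured heat shock and endoplasmic reticulum chaperone genes, 1 was higher, 8 were lower and 19 did not pass. Their median log2 change was -0.21 and the called share 32.1%. The unfolded protein response factor XBP1 gave -0.83 ± 0.13, adjusted p = 0.000205, the cochaperone BAG3 -0.83 ± 0.12, adjusted p = 0.000144 and the lectin chaperone CANX -0.64 ± 0.12, adjusted p = 0.00121. Of 25 measured lysosome and autophagy genes, 11 were higher, 2 were lower and 12 did not pass (median log2 change 0.22, called share 52%). With each array centred on its median, 4 were higher and 2 lower. The cathepsin CTSL gave 1.35 ± 0.14, adjusted p = 1.59e-06, the protective protein CTSA 0.82 ± 0.11, adjusted p = 3.33e-05 and the autophagy protein GABARAPL1 0.74 ± 0.11, adjusted p = 0.000173. The other CTSL probes gave 0.39 and 1.37.

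Housekeeping groups were called at or below the share of all genes, except oxidative phosphorylation and polyamine genes, which lay just above it. Of 27 measured ribosomal proteins, 1 was higher, 0 were lower and 26 did not pass (median log2 change -0.032), a called share of 3.7%. Of 18 measured tRNA synthetases, 0 were higher, 2 were lower and 16 did not pass (median log2 change -0.16), a share of 11.1%. Of 24 measured genes of oxidative phosphorylation, 0 were higher, 4 were lower and 20 did not pass (median log2 change -0.08), a share of 16.7%. COX7A2, a subunit of cytochrome oxidase, was the largest of these at -0.89 ± 0.17, adjusted p = 0.00158. Of 17 measured genes of the polyamine and methionine cycles, 2 were higher, 1 was lower and 14 did not pass (median log2 change 0.044), a share of 17.6%. SAT1, which acetylates polyamines for export, was lower (-0.81 ± 0.11, adjusted p = 4.7e-05).

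**Figure D3:**
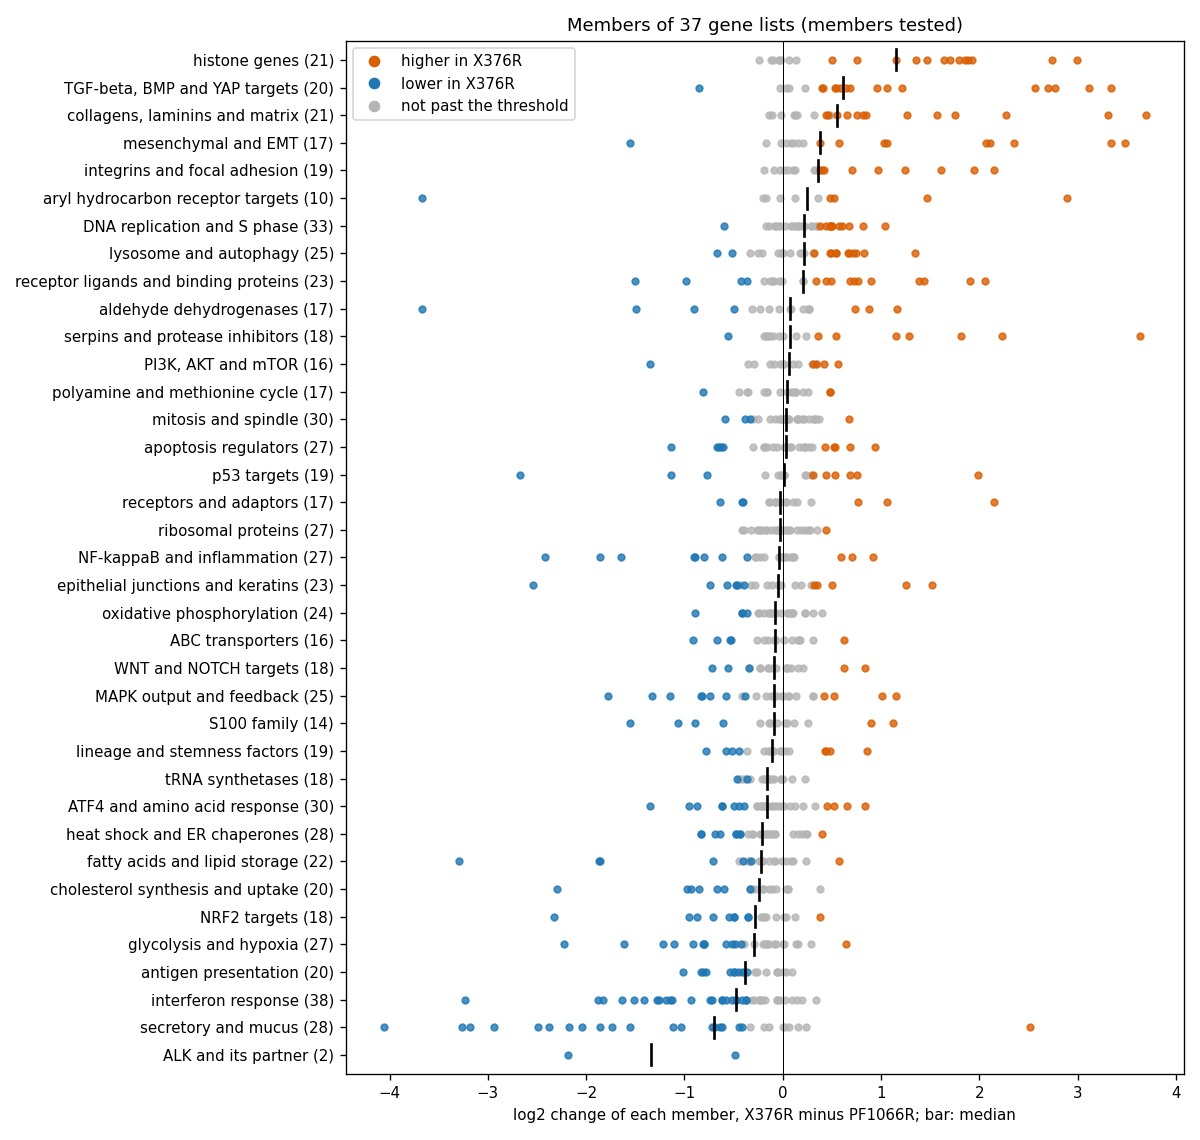
Log2 change, X376R minus PF1066R (horizontal axis), of every measured member of 37 gene lists (vertical axis, number of members tested in brackets), with a black bar at each list's median. Medians run from -1.34 for ALK and its partner, and -0.70 for secretory and mucus genes, to 1.15 for histone genes, against -0.0010 over all genes tested.

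The share of called genes differed between chromosomes, a pattern noticed after the values were seen and described without a test. On chromosome 9, 88 of 559 tested genes were higher in X376R (15.7%) and 25 lower (4.47%). Higher genes also outnumbered lower ones on other chromosomes. Among them were chromosomes 3 (71 against 32), 7 (75 against 32), 14 (56 against 25), 15 (46 against 23), 19 (84 against 31), 21 (21 against 10) and 22 (40 against 18). On chromosome 6, 38 of 739 were higher (5.14%) and 106 lower (14.3%), on chromosome 8, 22 and 73 of 495, and on chromosome 11, 32 and 97 of 809. Chromosomes 5, 10 and 12 also held fewer higher than lower genes, 41 against 80, 31 against 74 and 36 against 76. Over all genes tested the shares were 7.97% and 8.1%.

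**Figure D4:**
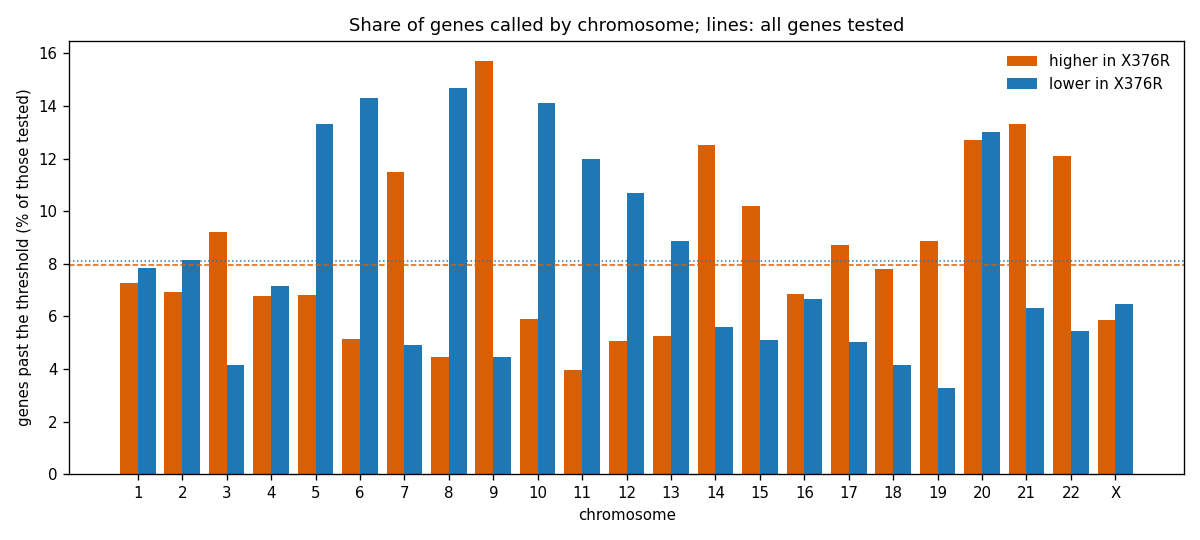
Share of tested genes that were called higher (orange) or lower (blue) in X376R (vertical axis, percent) on each chromosome (horizontal axis), with dashed and dotted lines at the shares over all genes tested. The higher share peaks at 15.7% on chromosome 9, and the lower share at 14.7% on chromosome 8 and 14.3% on chromosome 6.

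Runs of 31 adjacent tested genes were read along each chromosome in the RefSeq order of GRCh38.p14. The lowest median was that of the run from MYLK4 to TFAP2A on chromosome 6, at -0.44, with 16 genes lower, 0 higher and 29 of 31 changes below 0. Its median was -0.27 for X376R against Parental and -0.021 for PF1066R against Parental, comparisons that share arrays with the first. The run holds the desmosomal gene DSP (-0.57 ± 0.10, adjusted p = 0.00104), whose other probes gave 0.08 and -0.17 and whose call was lost with the mean of the passing probes (-0.22, adjusted p = 0.132). A run from BTBD10 to ZDHHC13 on chromosome 11 had a median of -0.32 with 12 genes lower and 0 higher, among them LDHA, lactate dehydrogenase A (-0.81 ± 0.12, adjusted p = 0.000109; other probes at -0.63 and -0.20). These genes were named after their values were seen. The highest median was 0.28, in the run from TRAF3 to BTBD6 on chromosome 14, with 12 genes higher and 1 lower. Against Parental, the median of that run was -0.0077 for X376R and -0.15 for PF1066R. For the chromosome 11 run these medians were -0.19 and 0.041. Genome copy number was not analysed here.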

How the data were processed

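Total RNA of each line was read on 3 Illumina bead arrays. Trizol and RNeasy columns were used to prepare the RNA, which was labelled as biotinylated cRNA, per the labels' protocols. The authors deposited a linear intensity for every probe on every array, without a detection p, and the lowest is 60.4. The sources used here do not name the scanner software. They also deposited normalized log2 values, and the submitters' processing notes name R 2.15. In the log2 values the replicate 2 and 3 columns keep the rank order of the signals exactly (Spearman 1), while the replicate 1 columns give 0.9528, 0.9517 and 0.9435, so it served only as an alternative.

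With limma 3.58.1 in R 4.3.3, signals of all 9 arrays were corrected by normexp (offset 50), quantile-normalized and logged. The array number limits the precision. Of 47323 probes 1 had no value, 30112 had 1 gene symbol, 8 several and 17202 none, and 30073 were matched to RefSeq genes (GRCh38.p14, used for names, order and promoters). The table names no control probes, so 92 probes whose IDs share a range were treated as external controls, as known for this platform. Their highest signal set the background, and a probe had to exceed it on at least 3 of 9 arrays. The passing probe with the highest mean stood for a gene. The planned use of all 9 arrays with 1 mean per line was kept, with 6 residual and 10.6 prior degrees of freedom. Where a line was below background on all 3 arrays, the fold is a bound: for each array of the dim line the higher of the probe's own value and the lowest signal above background was taken, and their mean was set against the bright line's mean. The procedure was run on simulated data with equal brightness and independent noise on every array. That run cannot address how the calls depend on scaling.

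The comparison, the naming rule and the gene lists (960 genes, 782 measured) were chosen with earlier results of these data known. The rule takes the 20 highest and 20 lowest changes among called genes whose arrays do not overlap, every receptor and adaptor, and up to 5 members of each other list by size. Histones of near-identical copies and names made of locus numbers were passed over among the 20, and not every gene the rule gives is named. Lists are described by counts and medians, with no set test. Alternatives covered background correction, normalization, filter, probe choice, arrays, covariates, moderation and each array left out.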

Additional observations from a re-analysis of the deposited data

How the results depend on the processing

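There were 19 alternatives, 13 with all 6 arrays of the resistant lines and 6 without 1 of them. Across these no called gene was called in the opposite direction. Centring each array on its median gave 978 called genes, 275 higher and 703 lower, with 213 lower by at least 2-fold. A normexp offset of 16 gave 501 genes of at least 2-fold change, 253 higher and 248 lower. Median centring also turned the medians of 7 gene lists below 0: those of aryl hydrocarbon receptor targets (-0.0272), mitosis (-0.144), aldehyde dehydrogenases (-0.103), PI3K, AKT and mTOR signalling (-0.014), apoptosis regulators (-0.0286), protease inhibitors (-0.0933) and the polyamine and methionine cycle (-0.0898). The cause of these shifts was not tested. In the other alternatives that kept all 6 of those arrays, called genes ran from 1534, with array brightness as a covariate, to 2534, with the authors' log2 table. Leaving out 1 array gave 1618 to 2187 called genes (797 to 1073 higher, 821 to 1114 lower) and 279 to 301 of at least 2-fold change (132 to 143 higher, 143 to 164 lower). Of 181 called genes given by the naming rule, 137 kept their call in every alternative they were tested in (all 19 for 110 genes and 18 for 27), 38 lost it with median centring, 28 without some array and 22 with array brightness. ABCG1, lower in the reported fit, turned to 0.0978 when probes had to be above background on all 9 arrays, which moves the gene to another probe. The labels do not say whether replicate numbers pair the lines. Deviations of same-numbered arrays correlated at -0.0353, 0.144 and 0.11, and those of differently numbered arrays at -0.166 to 0.0696. Whether same-numbered arrays share a batch was not tested. With the replicate number as a block, 2477 genes were called, 2193 of them shared with the reported calls. Signal over background limits genes that are dim in one line: 117 called genes have only a bound on their fold.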
